A study of Mus musculus with 12 samples.

Results

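The genes described here are those of the cohesin ring, its loader and regulators, and the insulator protein Ctcf, in mouse neocortex with 1 or 2 working copies of Chd8. They are Smc1a, Smc3, Rad21, Stag1, Stag2, Stag3, Nipbl, Pds5a, Pds5b and Ctcf, 10 of the 46603 genes in the count tables, each found by the symbol of its Ensembl gene identifier. Some members were chosen by their measured log2 fold change between genotypes at P5, which was known when the list was drawn up, so the P5 difference between genotypes is given below as a description with no p-value, and counts of calls from it stand beside the share of all genes with nothing read from them. RNA-seq was done on neocortex of Chd8+/+ and Chd8+/- mice on a C57BL/6J background at embryonic day 12.5 (E12.5) and postnatal day 5 (P5), with 3 libraries for each genotype at each stage, 12 in all. Chd8+/- mice carry a null allele made by deleting exon 3 of a floxed Chd8 allele with a beta-actin Cre line, and the Cre was then bred out. Both hemispheres were taken at E12.5 and a single one at P5, and the stages were counted in separate tables, so stage cannot be told apart from dissection or preparation.

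Cohesin is a ring-shaped complex that holds sister chromatids together in dividing cells and extrudes chromatin loops in all cells. Smc1a and Smc3 form the long arms of the ring, Rad21 closes it, and a Stag protein binds Rad21. Stag1 and Stag2 are the forms of somatic cells, whereas Stag3 belongs to the cohesin of meiosis in germ cells. Nipbl loads the ring on chromatin with Mau2, Pds5a and Pds5b regulate its release with Wapl, and Ctcf stops extruding cohesin at its binding sites.

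Each library held between 38774591 and 54695236 counts in genes. Levels are given as CPM, the counts scaled to the library total, with normalisation by the trimmed mean of M values (TMM) over the 12 libraries. Chd8, the targeted gene, had 233 ± 3.55 CPM in Chd8+/+ and 164 ± 3.31 CPM in Chd8+/- libraries at E12.5 (SD, n = 3 each), and 149 ± 3.11 and 96.5 ± 1.93 CPM at P5 (SD, n = 3 each). In each group 1 library had Xist above 100 CPM. Smc1a and Stag2, the X-linked members, lay in those libraries within the range of the other 2 at E12.5, but in P5 Chd8+/- the library with high Xist, replicate 1, was the lowest for both (97.6 CPM for Smc1a and 62.2 CPM for Stag2). That library was also the lowest of its group for the 7 autosomal members other than Stag3. All 10 neocortex markers were detected in each group. Nothing in the labels says how many litters the mice came from, so p-values measure the spread between these samples.

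Promoters are shown for Stag3, the gene that went against the rest, and for Stag1 and Smc1a, which moved with the majority. Of the members, 7 had an entry among the RefSeq promoters of GRCm38.p6, each 300 bases long with 250 bases before the start. The words searched on both strands were CACGTG, an E-box, and TTCCCGC, which reads GCGGGAA on the other strand and resembles the site of E2F factors. These words do not overlap each other, and capitals mark them. The window of Stag3 is chr5:138280259-138280558, that of Stag1 chr9:100643198-100643497 and that of Smc1a chrX:152016178-152016477, all on the plus strand. In the annotation used for counting, Stag3 starts at 138280240 and Stag1 at 100597798, so for these genes the RefSeq start lies inside the counted gene and differs from its start.
Stag3: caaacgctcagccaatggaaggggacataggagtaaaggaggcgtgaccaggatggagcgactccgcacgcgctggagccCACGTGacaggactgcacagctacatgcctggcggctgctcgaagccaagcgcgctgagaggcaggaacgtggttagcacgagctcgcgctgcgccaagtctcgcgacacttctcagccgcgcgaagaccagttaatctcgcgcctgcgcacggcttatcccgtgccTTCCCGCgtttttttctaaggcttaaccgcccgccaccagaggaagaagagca
Stag1: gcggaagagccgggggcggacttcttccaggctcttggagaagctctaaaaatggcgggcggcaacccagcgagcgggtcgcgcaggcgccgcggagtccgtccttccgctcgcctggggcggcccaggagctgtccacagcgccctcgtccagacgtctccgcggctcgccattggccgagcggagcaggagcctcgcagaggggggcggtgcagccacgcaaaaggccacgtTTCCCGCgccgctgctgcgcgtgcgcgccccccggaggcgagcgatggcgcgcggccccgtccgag
Smc1a: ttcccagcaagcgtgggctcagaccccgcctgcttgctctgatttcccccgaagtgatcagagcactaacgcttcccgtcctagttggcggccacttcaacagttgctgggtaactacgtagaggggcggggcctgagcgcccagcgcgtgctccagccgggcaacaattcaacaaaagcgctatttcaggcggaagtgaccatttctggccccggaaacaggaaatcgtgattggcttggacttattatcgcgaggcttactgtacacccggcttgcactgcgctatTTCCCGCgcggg
TTCCCGC was present in 4 of the 7 promoters (Stag3, Stag1, Smc1a and Pds5a), against 4.6% of all 32851 promoters. CACGTG was present in 1 of the 7, Stag3, against 7.15% of all promoters. Both words together were found in 0.457% of all promoters. A match is a description of the letters in this window.

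The ring subunits were the most abundant transcripts at E12.5 and fell steeply by P5. Levels between genes were compared as CPM per kb of merged exon length. In E12.5 Chd8+/+ libraries Rad21 led with 131 ± 3.12 CPM per kb, followed by Smc1a with 58.1 ± 3.26 CPM per kb and Smc3 with 47.5 ± 0.502 CPM per kb (SD, n = 3 each). Ctcf had 45.5 ± 2.65 CPM per kb (SD, n = 3), and its range overlapped that of Smc3. Stag2 had 29.1 ± 0.799, Nipbl 24.5 ± 0.969, Pds5b 21.0 ± 0.40, Pds5a 16.4 ± 0.354 and Stag1 13.9 ± 0.134 CPM per kb (SD, n = 3 each). Stag3 came last, with 0.898 ± 0.225 CPM per kb (SD, n = 3).

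In P5 Chd8+/+ libraries the order began with Rad21 (43.4 ± 1.46 CPM per kb), Smc1a (19.4 ± 0.919) and Ctcf (18.1 ± 0.394), and Smc3 had 14.2 ± 0.272 CPM per kb (SD, n = 3 each). No 2 neighbours in that order overlapped. Pds5b stood above Stag2 and Nipbl at P5, with 13.2 ± 0.493 CPM per kb against 9.58 ± 0.513 and 8.34 ± 0.219 (SD, n = 3 each), where it had stood below both at E12.5. Pds5a and Stag1 also changed places, with 4.62 ± 0.0642 and 5.47 ± 0.150 CPM per kb at P5 (SD, n = 3 each). Stag3 remained last with 2.69 ± 0.132 CPM per kb (SD, n = 3). In P5 Chd8+/- libraries the order was the same, but Smc1a overlapped Ctcf and Smc3 overlapped Pds5b.

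**Figure D1:**
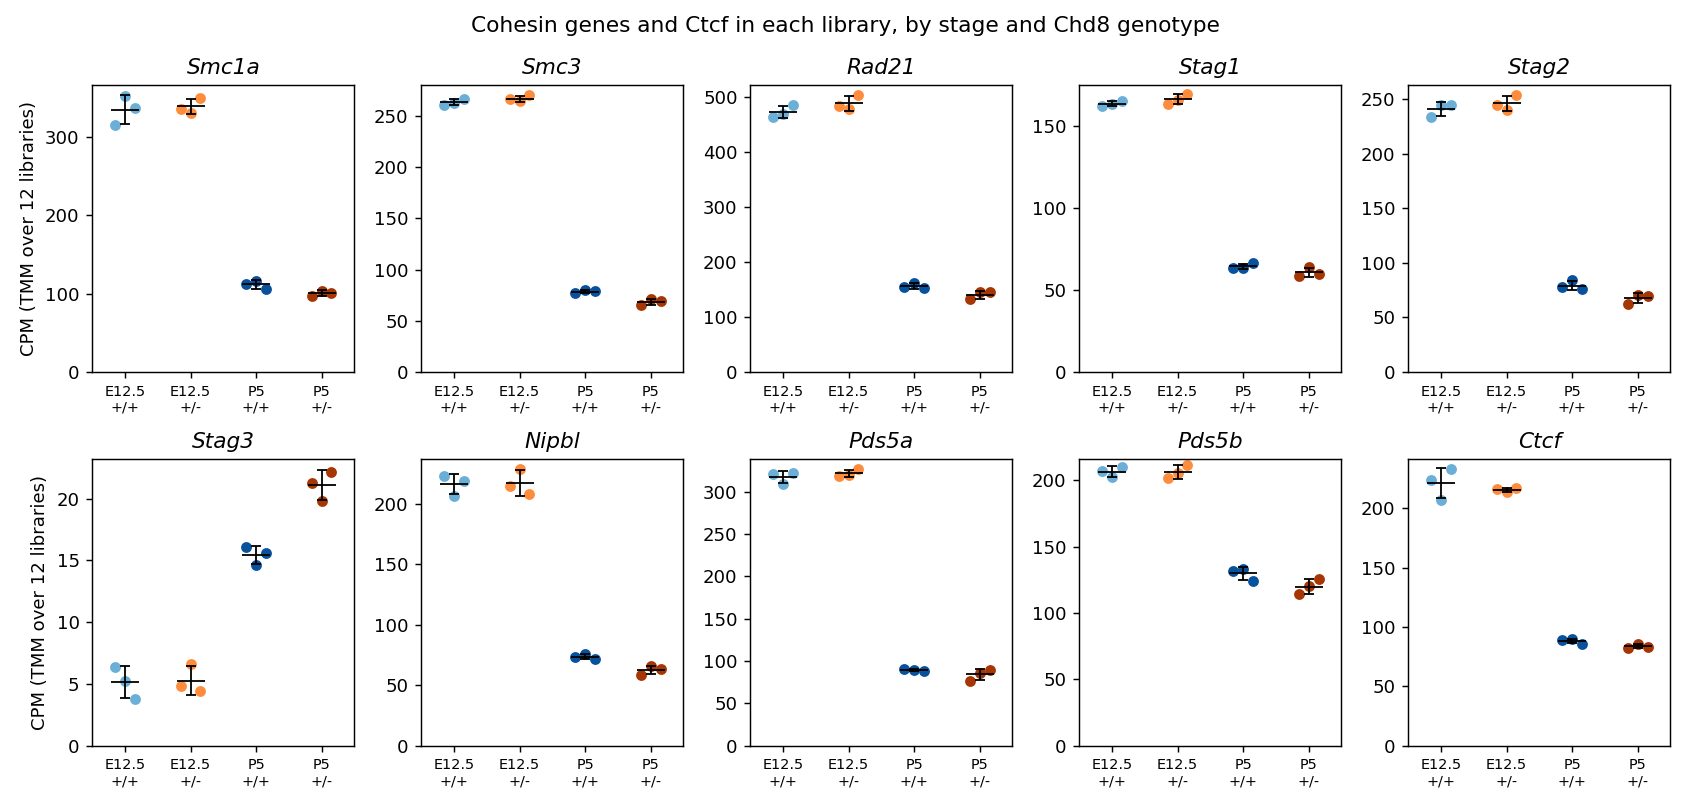
CPM (TMM over 12 libraries) of each gene on the y axis, from 0, for the 4 groups on the x axis; points are libraries, horizontal bars the group means and error bars the SD (n = 3). Stag3 is higher in every P5 library than in every E12.5 library, and the other 9 genes are lower.

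Between E12.5 and P5, 9 of the 10 genes fell and Stag3 rose, in both genotypes. edgeR's quasi-likelihood test called all 10 in Chd8+/+ (adjusted p between 8.05e-15 and 2.47e-07) and all 10 in Chd8+/- (adjusted p between 3.03e-15 and 1.71e-08). Stage differences were general: 83.1% of genes tested were called in Chd8+/+ and 82.9% in Chd8+/-, with 41.7% and 41.6% called lower and 41.4% and 41.3% called higher. The stages did not overlap for any member in either genotype, as for 84.2% of genes in Chd8+/+ and 84.1% in Chd8+/-. Being called was therefore near the background, and the size of the fall is given for each gene. A fall by more than 1 on the log2 scale was found for 8 of the 10 members in each genotype, against 20.3% of genes in Chd8+/+ and 20.7% in Chd8+/-. A rise of more than 1 was found for Stag3, against 26.6% and 26.5% of genes. Over the 10 members the median change was -1.57 on that scale for Chd8+/+ and -1.77 for Chd8+/-, where that of all genes tested was -0.02 and -0.00463. In bulk tissue fewer cells of a type and less RNA per cell cannot be told apart. The stage differences use the same libraries as the genotype differences given below.

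Smc3, an arm of the ring, had 261, 263 and 266 CPM in the E12.5 Chd8+/+ libraries and 76.8, 79.6 and 79.1 CPM at P5. In Chd8+/- libraries Smc3 had 266, 264 and 270 CPM at E12.5 and 65.4, 70.9 and 69.3 CPM at P5. The stages lay far apart, with a log2 fold change of -1.75 (SE 0.0378) in Chd8+/+ and -1.96 (SE 0.0382) in Chd8+/-. Smc1a, the other arm, fell by 1.58 (SE 0.0524) and by 1.75 (SE 0.0528) on the log2 scale in Chd8+/+ and Chd8+/-. Rad21, which closes the ring, was the most abundant member, with 463, 470 and 485 CPM at E12.5 and 155, 162 and 152 CPM at P5 in Chd8+/+. The stage difference of Rad21 was -1.60 (SE 0.0506) in Chd8+/+ and -1.80 (SE 0.0510) in Chd8+/- on the log2 scale.

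Nipbl, the loader, had 223, 207 and 219 CPM at E12.5 and 73.5, 75.5 and 71.6 CPM at P5 in Chd8+/+ libraries. The loader changed by -1.56 (SE 0.0495) in Chd8+/+ and by -1.79 (SE 0.0501) in Chd8+/- on the log2 scale. Mau2, its partner in loading, went from 126 ± 4.64 to 116 ± 5.15 CPM in Chd8+/+ (SD, n = 3 each), a log2 fold change of -0.11 (SE 0.0432, adjusted p = 0.0243 from edgeR). DESeq2 did not call Mau2 in either genotype. Wapl, which releases cohesin, fell by 1.83 (SE 0.0452, adjusted p = 2.99e-14 from edgeR) on the log2 scale in Chd8+/+.

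The paired regulators Pds5a and Pds5b fell to different extents. Pds5a had 321, 310 and 322 CPM at E12.5 and 90.6, 89.4 and 88.1 CPM at P5 in Chd8+/+, a log2 fold change of -1.83 (SE 0.0519). Pds5b had 207, 202 and 210 CPM at E12.5 and 132, 133 and 124 CPM at P5, a log2 fold change of -0.67 (SE 0.0427), the smallest fall among the members. Pds5a made up 43.9 ± 0.218% of the summed Pds5a and Pds5b level per kb at E12.5 and 26.0 ± 0.536% at P5 in Chd8+/+ (SD, n = 3 each). The share in Chd8+/- was 44.3 ± 0.318% and 26.3 ± 0.690% (SD, n = 3 each), so the genotypes differed by less than 1 percentage point at each stage. Ctcf had 224, 207 and 233 CPM at E12.5 and 88.7, 89.6 and 85.9 CPM at P5 in Chd8+/+, and fell by 1.33 (SE 0.0419) on the log2 scale. Ctcf shares 7.61% of its exon bases with other annotated genes, against 1.93% for Pds5a and 0.338% for Stag2, and the remaining members share none.

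**Figure D2:**
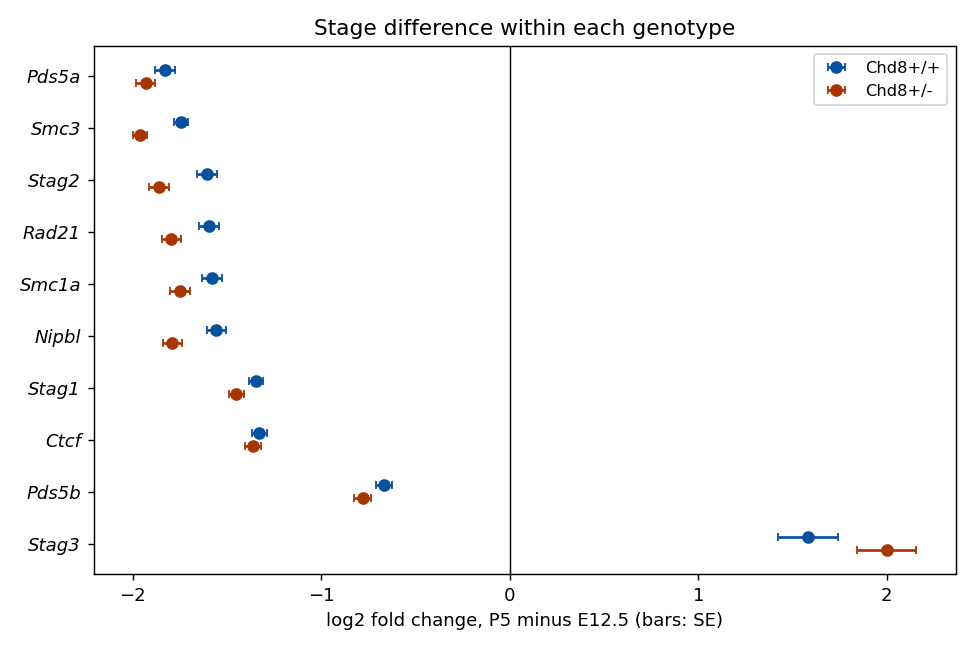
Log2 fold change from E12.5 to P5 on the x axis, by edgeR, for each gene on the y axis; points are estimates for Chd8+/+ and Chd8+/- (n = 3 libraries a group) and bars their SE. Of the 10 genes, 9 lie below 0, Pds5b nearest to it, and Stag3 lies at 1.58 and 2.00.

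The Stag genes moved in opposite directions. Stag2 had 233, 245 and 245 CPM at E12.5 and 78.0, 84.0 and 75.7 CPM at P5 in Chd8+/+, a log2 fold change of -1.61 (SE 0.0529). Stag1 had 162, 163 and 165 CPM at E12.5 and 63.2, 63.6 and 66.4 CPM at P5, a log2 fold change of -1.35 (SE 0.0380). Stag3 had 6.40, 5.22 and 3.83 CPM at E12.5 and 16.1, 14.6 and 15.6 CPM at P5. Stag3 thus rose by 1.58 (SE 0.157, adjusted p = 2.47e-07 from edgeR) on the log2 scale in Chd8+/+, which is 2.99-fold. In Chd8+/- libraries Stag3 had 4.83, 6.60 and 4.41 CPM at E12.5 and 21.3, 19.8 and 22.2 CPM at P5, a rise of 2.00 (SE 0.157, adjusted p = 1.71e-08 from edgeR). Every P5 library was above every E12.5 library. Markers of several other cell types rose with age too, over both genotypes. The summed level of 12 astrocyte and oligodendrocyte lineage markers went from between 254 and 283 CPM to between 1419 and 1602 CPM. That of the choroid plexus markers went from between 92.6 and 169 CPM to between 326 and 583 CPM, and that of the striatal neuron markers from between 103 and 111 CPM to between 253 and 386 CPM. Not every marker rose. Of 10 choroid plexus markers, 8 rose and 2 fell in Chd8+/+, and 7 rose and 3 fell in Chd8+/-. Of 10 striatal neuron markers, 8 rose and 2 fell in each genotype. The part of all these markers in the rise of Stag3 was not tested.

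Stag3 was a minor Stag transcript at E12.5 and a larger one at P5. Per kb it made up 2.59, 2.05 and 1.51% of the summed Stag1, Stag2 and Stag3 level in E12.5 Chd8+/+ libraries, and 15.9, 14.1 and 15.5% in P5 Chd8+/+ libraries. In Chd8+/- libraries the share was 1.90, 2.60 and 1.68% at E12.5 and 22.9, 19.8 and 22.2% at P5. The Stag1 share stayed between 29.1 and 32.2% in all 12 libraries. The Stag2 share went from 66.3 ± 0.750% at E12.5 to 54.0 ± 1.95% at P5 in Chd8+/+ and to 48.0 ± 1.44% in P5 Chd8+/- libraries (SD, n = 3 each). The counts behind Stag3 ran from 183 to 1031 a library, and its E12.5 values had the widest relative spread of the members.

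**Figure D3:**
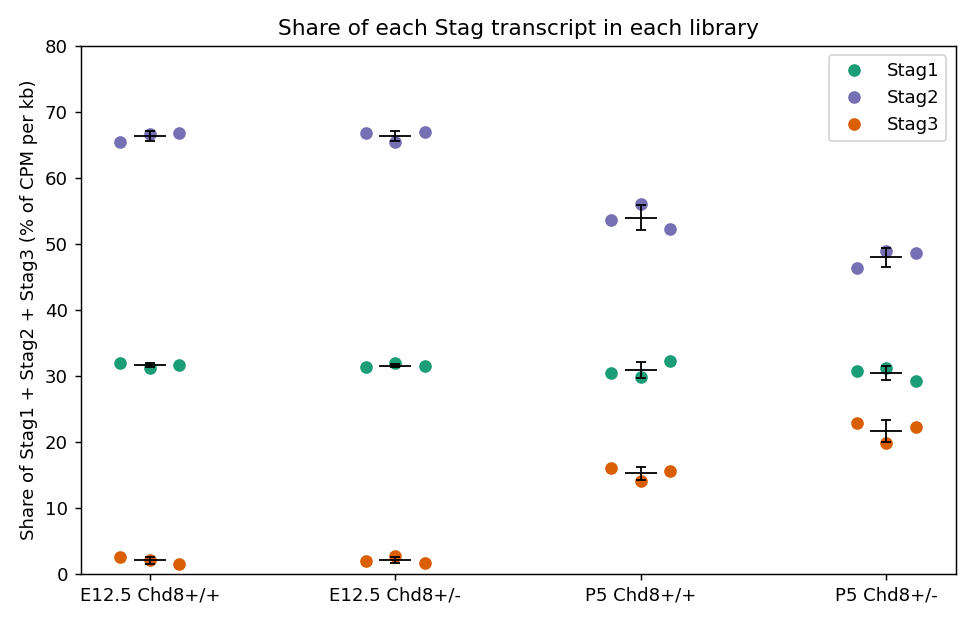
Share of Stag1, Stag2 and Stag3 in their summed CPM per kb (y axis, percent) in each library of the 4 groups (x axis); points are libraries, horizontal bars the means and error bars the SD (n = 3). The Stag3 share is near 2% at E12.5, 15.2% in P5 Chd8+/+ and 21.7% in P5 Chd8+/- libraries.

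Among the other genes of meiotic cohesin, Rec8 fell with age and Smc1b was not called. Rec8, the meiotic counterpart of Rad21, was detected at each stage and fell with age, from 9.15 ± 0.415 to 5.81 ± 1.04 CPM in Chd8+/+ (SD, n = 3 each), a log2 fold change of -0.65 (SE 0.112, adjusted p = 7.89e-05 from edgeR). In Chd8+/- the log2 fold change of Rec8 was -0.33 (SE 0.114, adjusted p = 0.0165 from edgeR). Rad21l, another counterpart of Rad21 in meiosis, had at most 5 counts in any E12.5 library and between 19 and 37 at P5. It passed the filter on low counts through its P5 libraries alone, so these counts are given with no test. Smc1b, the meiotic partner of Smc3, had between 21 and 35 counts in every library, with a log2 stage difference of 0.07 (SE 0.198, adjusted p = 0.756 from edgeR) in Chd8+/+. Ctcfl, the germ line paralog of Ctcf, had between 14 and 31 counts. Its log2 stage difference was -0.28 (SE 0.248, adjusted p = 0.311 from edgeR) in Chd8+/+ and -0.79 (SE 0.256, adjusted p = 0.0110 from edgeR) in Chd8+/-, and DESeq2 called it in neither. Of 28 genes of meiosis and germ line, 17 were tested, and edgeR called 6 higher and 6 lower in Chd8+/+, where it called 41.4% of all genes higher and 41.7% lower. Some of the 17 passed the filter through 1 stage alone, so nothing is read from these counts. Dazl, an RNA-binding protein of germ cells, was one of these, with 7, 7 and 4 counts at E12.5 and 100, 87 and 73 at P5 in Chd8+/+. Sycp2, of the synaptonemal complex, rose by 2.70 (SE 0.207, adjusted p = 1.25e-08 from edgeR) on the log2 scale. Msh5, of meiotic recombination, had a log2 fold change of -2.83 (SE 0.217, adjusted p = 1.27e-08 from edgeR), and the histone reader Zcwpw1 was also called lower (SE of its log2 fold change 0.0999, adjusted p = 2.79e-07 from edgeR).

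Stag3 overlaps no annotated gene. Its nearest neighbour is Gpc2, a glypican gene on the opposite strand whose own start lies 235 bases from that of Stag3, and which fell with age by 2.42 (SE 0.104, adjusted p = 1.34e-11 from edgeR) on the log2 scale in Chd8+/+. The 5 genes whose profile lay closest to that of Stag3, by the root mean square difference of centred log2 CPM over the 12 libraries, were Slc26a8 (0.131), Csf2ra (0.135), Ccdc159 (0.143), Gm15688 (0.174) and Efcab3 (0.175), among 19675 genes. Csf2ra, a cytokine receptor subunit, had on average 38.4 CPM in P5 Chd8+/+ and 49.5 CPM in P5 Chd8+/- libraries. Gm15688 and Efcab3 had on average 0.0423 and 0.0141 CPM in E12.5 Chd8+/+ libraries, below the pseudocount of 0.5 CPM used in the measure. Their log2 fold changes with age in Chd8+/+ were 4.57 and 5.87, against 1.58 for Stag3, so the measure understates their distance from it. The 5 genes were picked for their likeness over the same libraries, so their differences are not tested.

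Genes that act on cohesin fell with age as well. Of 12 genes of loading, release, acetylation and cleavage, edgeR called 12 lower in Chd8+/+ and 11 in Chd8+/-, against 41.7% and 41.6% of all genes, and DESeq2 called 10 lower in each, and the median of the list was -2.42 on the log2 scale in each genotype. In Chd8+/+ the log2 fold change was -4.31 (SE 0.0775) for Cdca5, which protects cohesin in dividing cells, -4.23 (SE 0.0812) for the acetyltransferase Esco2, -4.73 (SE 0.0926) for the shugoshin Sgo1 and -3.72 (SE 0.0795) for Sgo2a. Markers of proliferating progenitors moved with them: 15 of 15 fell, and their summed level went from between 4836 and 5198 CPM at E12.5 to between 298 and 352 CPM at P5 over both genotypes. The part of these markers in the members' fall was not tested.

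At E12.5 the members had nearly the same level in both genotypes. edgeR called 0 of the 10 members, against 0.00553% of all genes. At an unadjusted p under 0.05 the count was also 0 members, against 5.15% of all genes. DESeq2 also called 0 members, against 0.0373% of genes with an adjusted p. The log2 fold changes of the 9 members other than Stag3 lay between -0.04 and 0.05, and the SE of the 10 between 0.0365 and 0.205. For Rad21 the values were 463, 470 and 485 CPM in Chd8+/+ and 483, 479 and 503 CPM in Chd8+/-, a log2 fold change of 0.05 (SE 0.0497, adjusted p = 0.968 from edgeR). The genotypes overlapped for all 10 members, where 11.4% of genes tested had no overlap. The log2 fold change of Stag3 was 0.03 with the widest SE, 0.205 (adjusted p = 0.996 from edgeR). Rec8 had no overlap, with 9.12, 9.59 and 8.76 CPM in Chd8+/+ and 7.82, 7.36 and 7.14 CPM in Chd8+/-, but was not called (log2 fold change -0.30, SE 0.0844, adjusted p = 0.942 from edgeR).

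At P5 Stag3 was higher in Chd8+/- than in Chd8+/+ neocortex and the other 9 members were lower, the differences among the 9 being small. These values chose some of the members and are given as a description. Stag3 had 16.1, 14.6 and 15.6 CPM in Chd8+/+ and 21.3, 19.8 and 22.2 CPM in Chd8+/-, a log2 fold change of 0.47 (SE 0.0661), or 1.38-fold. Nipbl had 73.5, 75.5 and 71.6 CPM in Chd8+/+ and 58.7, 65.7 and 63.9 CPM in Chd8+/-, a log2 fold change of -0.21 (SE 0.0447). Stag2 had 78.0, 84.0 and 75.7 CPM in Chd8+/+ and 62.2, 70.6 and 70.0 CPM in Chd8+/-, a log2 fold change of -0.21 (SE 0.0536). In each of these 3 genes no library of one genotype lay within the range of the other.

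Smc3 had 76.8, 79.6 and 79.1 CPM in Chd8+/+ and 65.4, 70.9 and 69.3 CPM in Chd8+/- at P5, a log2 fold change of -0.18 (SE 0.0383). Rad21 and Smc1a had log2 fold changes of -0.14 (SE 0.0441) and -0.13 (SE 0.0411), and their genotypes did not overlap either. Ctcf was nearest to no difference, with 88.7, 89.6 and 85.9 CPM in Chd8+/+ and 82.5, 85.9 and 83.3 CPM in Chd8+/-, a log2 fold change of -0.05 (SE 0.0327). Stag1, Pds5a and Pds5b overlapped between genotypes, with log2 fold changes of -0.06 (SE 0.0430), -0.07 (SE 0.0504) and -0.10 (SE 0.0431). With a library left out Pds5a ranged from -0.109 (without P5 Chd8+/- replicate 3) to -0.00710 (without P5 Chd8+/- replicate 1). Stag1 ranged from -0.102 (without P5 Chd8+/- replicate 2) to -0.0353 (without P5 Chd8+/+ replicate 3), and Pds5b from -0.122 (without P5 Chd8+/+ replicate 3) to -0.0634 (without P5 Chd8+/- replicate 1). With offsets for gene length, 7 of the 10 members were lower, and Stag1 and Pds5a turned to 0.0060 and 0.020.

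**Figure D4:**
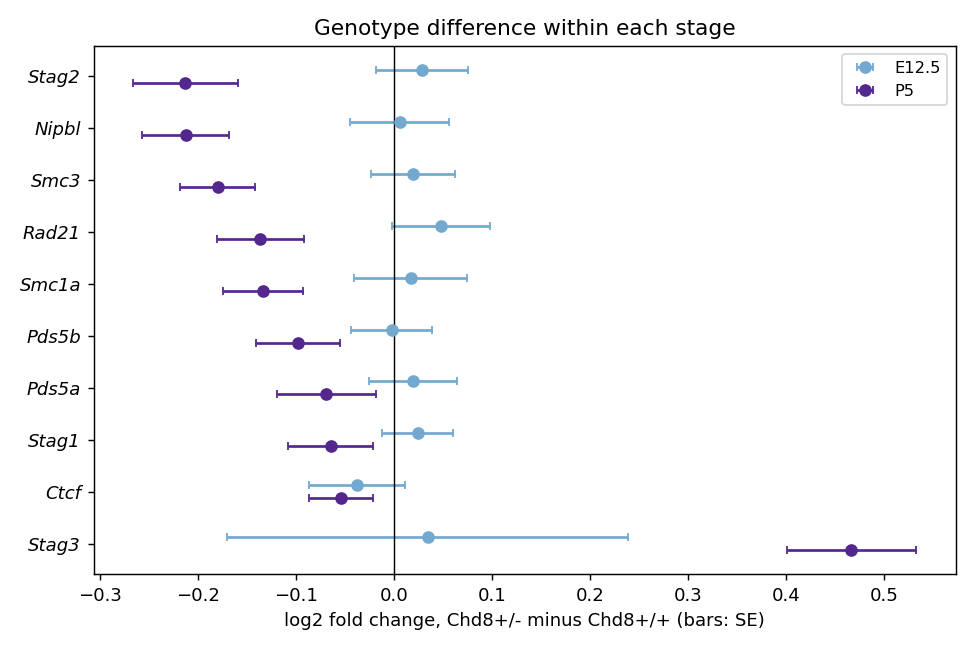
Log2 fold change of Chd8+/- against Chd8+/+ on the x axis, by edgeR, for each gene on the y axis; points are estimates at E12.5 and P5 (n = 3 libraries a group) and bars their SE. At E12.5 the points lie between -0.04 and 0.05, and at P5 Stag3 lies at 0.47 and the other 9 between -0.21 and -0.05.

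The number of members called at P5 depended on the tool. edgeR called 0 of the 10, against 0.00536% of all genes. At an unadjusted p under 0.05 the count was 7 members, against 17.8% of all genes. DESeq2 called 4 (Stag3, Smc3, Stag2 and Nipbl), against 5.22% of genes with an adjusted p (3.55% lower and 1.68% higher). The genotypes did not overlap for 7 members, against 23.4% of genes (6 lower, against 14.8%, and Stag3 higher, against 8.55%). Ctcf was one of the 6 by a thin margin, its lowest Chd8+/+ library at 85.935 CPM and its highest Chd8+/- library at 85.895 CPM. Without P5 Chd8+/- replicate 2 edgeR called 3 members. Without P5 Chd8+/- replicate 1, P5 Chd8+/+ replicate 1 or P5 Chd8+/+ replicate 2, DESeq2 called 1 member. Nothing is read from any of these counts, since the same contrast chose members, and they support no difference. Markers of other cells moved at P5 too. The summed level of 10 choroid plexus markers lay between 451 and 583 CPM in Chd8+/+ and between 326 and 387 CPM in Chd8+/-, with 10 of 10 lower. That of 10 striatal neuron markers lay between 357 and 386 CPM and between 253 and 321 CPM, again with 10 of 10 lower. GABAergic interneuron markers summed to between 681 and 703 CPM in Chd8+/+ and between 591 and 665 CPM in Chd8+/-, with 8 of 10 lower. Proliferating progenitor markers summed to between 314 and 352 CPM and between 298 and 335 CPM, which overlap, with 11 of 15 lower. Meningeal fibroblast markers went the other way, with 7 of 8 higher and 1 lower. Their sums overlapped, between 300 and 333 CPM in Chd8+/+ and between 286 and 373 CPM in Chd8+/-. Endothelium and microglia markers summed to between 286 and 337 CPM and between 272 and 297 CPM, which overlap, with 5 higher and 7 lower. All markers of these lists were detected in each group, and their part in the members' values was not tested.

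Whether the genotype difference changed with stage was fitted as an interaction over the 12 libraries. edgeR called 0 members and 0% of genes, and 5 members had an unadjusted p under 0.05 against 10% of genes. DESeq2 called 0 members against 0.0929% of genes with an adjusted p. The interaction contains the P5 contrast, so it is a description as well and nothing is read from these counts. It was 0.42 (SE 0.221) for Stag3, -0.26 (SE 0.0735) for Stag2, -0.23 (SE 0.0689) for Nipbl and -0.22 (SE 0.0523) for Smc3 on the log2 scale. Ctcf had the smallest, -0.03 (SE 0.0585). With a library left out the interaction ranged from 0.26 to 0.62 for Stag3 and from -0.0614 to 0.0249 for Ctcf, whose sign turned without E12.5 Chd8+/+ replicate 2.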

How the data were processed

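The members and gene lists were chosen with earlier results of these data known. Raw counts of reads per gene were deposited by the authors, 2 sequencing runs per library. Per the submitters' processing notes and the study's methods, reads were checked with FastQC 0.11.2, trimmed with Trim Galore 0.4.1, aligned to GRCm38 with TopHat2 2.1.0, counted with featureCounts 1.5.0 and tested with DESeq2 1.10.1. The runs of a library were summed here; chi-squared per degree of freedom was 1.18 to 1.54 between runs and 7.09 to 49.7 between libraries of a group.

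Low counts were filtered with edgeR's filterByExpr, libraries were scaled by TMM, and edgeR 4.0.16 quasi-likelihood tests were run in R 4.3.3. Each stage was fitted for genotype, and the 12 libraries together for stage and the interaction, with a Benjamini-Hochberg adjusted p under 0.05 called. The genes tested numbered 18081 at E12.5, 18666 at P5 and 19676 over the 12 libraries, and the biological coefficient of variation was 9.18%, 7.42% and 8.36%. The fits were also run on simulated counts, with planted changes larger than the P5 genotype differences of the members. The outcome is not given here and nothing is read from it. The Wald test of DESeq2 1.42.0 was run with its default filter level of 0.1, as the analysis plan named it. It had first been run at a level of 0.05 and was set to the default after those calls had been seen, so both are reported, the level of 0.05 as an alternative chosen after seeing the data. The other alternatives were DESeq2's size factors, no filter on low counts, offsets for gene length (loess span 0.5, genotype within a stage only), a replicate block, all 12 libraries in 1 model and each library left out.

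Named were the members; Chd8, Mau2, Wapl, Smc1b, Rec8, Rad21l and Ctcfl; in each list the 4 genes with the smallest p in a contrast; the neighbours of Stag3; and the 5 genes with the profile most like it (pseudocount 0.5 CPM).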

Additional observations from a re-analysis of the deposited data

How the results depend on the processing

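The stage differences of the 10 members were called, in the same direction, under every alternative run for them, with 10 of 10 called in both genotypes. Offsets for gene length were run for the genotype differences within a stage, not for the stage differences or the interaction. At E12.5 and for the interaction 0 members were called under every alternative run for each. At E12.5 the sign of small values turned: Nipbl was at -0.000515 with no filter on low counts, and with a library left out Smc1a ranged from -0.0295 to 0.0608, Stag3 from -0.16 to 0.22, Nipbl from -0.0304 to 0.0352 and Pds5b from -0.0219 to 0.0146 on the log2 scale. Ctcf and Rad21 kept their sign with a library left out, but ranged from -0.0780 to -0.00159 and from 0.0244 to 0.0650. At P5 the number of members called went from 0 to 4 with DESeq2, at its default filter level or at 0.05, and to 4 with no filter on low counts. With a library left out it ranged from 0 to 3 by edgeR, from 1 to 5 by DESeq2, and from 0 to 4 by DESeq2 with its filter at 0.05. The genes called over all genes were 1 by edgeR and 651 by DESeq2 at P5, 995 with no filter, and 327 without P5 Chd8+/- replicate 2; at E12.5 they were 1, 5 (3 with the filter at 0.05) and 13. The cause was not tested.

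Same-numbered libraries did not deviate together in every pair (correlations of -0.23, -0.1 and -0.09 at E12.5 and 0.23, 0.11 and 0.04 at P5). Pairs with different numbers ran from -0.19 to 0.1 at P5. Replicate 1 was the library with high Xist in both P5 genotypes, but at E12.5 it was replicate 3 in Chd8+/+ and replicate 1 in Chd8+/-. The replicate block is thus an alternative only. With the block, 0 members were called at E12.5, at P5 and for the interaction, and 10 in each stage difference. The genes called over all genes with the block were 0 at E12.5 and 4 at P5. Without division by length the Stag3 share was 1.26% and 1.27% at E12.5 and 9.71% and 14.1% at P5 in Chd8+/+ and Chd8+/-, and the Pds5a share was 60.6% and 61.0% at E12.5 and 40.8% and 41.2% at P5. With a library left out the Stag3 share ranged from 1.78 to 2.32% and 1.79 to 2.25% at E12.5, and from 14.8 to 15.7% and 21.0 to 22.6% at P5. With 3 libraries a group and an SE of 0.205 for Stag3 at E12.5, a genotype difference in Stag3 there was not detectable below the size that SE allows.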

Other observations

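Condensin and the Smc5/6 complex, relatives of cohesin that compact and repair chromosomes, fell with age as well. Of 14 genes, edgeR called 13 lower and 1 higher in Chd8+/+, against 41.7% and 41.4% of all genes, and 13 lower and 0 higher in Chd8+/-, against 41.6% and 41.3%. The list's median was -1.75 in Chd8+/+ and -1.80 in Chd8+/- on the log2 scale. That of the 15 proliferating progenitor markers, all lower at P5, was -4.06 in Chd8+/+, and their part in this fall was not tested. The condensin subunits Ncapg, Ncaph, Ncapg2 and Smc4 had log2 fold changes of -4.70 (SE 0.0576), -3.68 (SE 0.0498), -3.09 (SE 0.0512) and -3.80 (SE 0.0667). At P5 edgeR called 0 of the 14 between genotypes, 8 had an unadjusted p under 0.05 (17.8% of all genes did), and DESeq2 called 0 (5.22% of genes with an adjusted p). Nsmce1, of Smc5/6, had a log2 fold change of 0.25 (SE 0.0799, adjusted p = 0.155 from edgeR) there, and Smc5 one of -0.17 (SE 0.0563, adjusted p = 0.174 from edgeR).

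Of 10 architectural partners of Ctcf, 10 were called lower at P5 than at E12.5 in both genotypes, against 41.7% of all genes in Chd8+/+ and 41.6% in Chd8+/-, and the list's median was -1.14 in Chd8+/+ and -1.19 in Chd8+/- on the log2 scale. Between genotypes at P5 edgeR called Chd8 alone, and DESeq2 called 3 of the 10, the targeted Chd8 among them, against 5.22% of genes with an adjusted p. Rif1, a regulator of replication timing, had a log2 fold change of -0.35 (SE 0.0815, adjusted p = 0.110 from edgeR), and Smchd1, an Smc-like protein of the inactive X chromosome, one of -0.18 (SE 0.0438, adjusted p = 0.116 from edgeR). Of 16 genes of meiosis and germ line tested at P5, 14 were higher and 2 lower in Chd8+/-, where 9412 of all 18666 genes tested were higher. Some of the 16 had few counts, and Sycp2, one of the 14, had a log2 fold change of only 0.0053 (SE 0.126). Nothing is read from the direction of the 16. Their median was 0.21 on the log2 scale, where that of all genes tested was 0.00169. edgeR called 0 of the 16, and 5 had an unadjusted p under 0.05, against 17.8% of all genes. DESeq2 called 0, against 5.22% of genes with an adjusted p. Zcwpw1 had a log2 fold change of 0.40 (SE 0.109, adjusted p = 0.128 from edgeR) at P5 and 0.57 (SE 0.0895, adjusted p = 0.541 from edgeR) at E12.5, where DESeq2 called it, 1 of the 5 genes it called.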
